A study of Homo sapiens with 2 samples.

Results

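The ID1 and ID3 high cells, called ID-high here, were 215 of the 1744 cell barcodes with at least 1000 UMIs in 2 single-cell RNA libraries of MDA-MB-231 mammospheres. A UMI, or unique molecular identifier, is a random tag that marks 1 captured transcript, and the deposited table held 2000 barcodes in all. A barcode was ID-high when its ID1 and ID3 UMIs summed to at least 3 and made up at least 0.08% of its UMIs. Barcodes of the same library with 0 such UMIs are called ID-zero, and the remainder ID-intermediate. There were 20 ID-high, 194 ID-intermediate and 586 ID-zero cells at 2 mM metformin, against 195, 421 and 328 at 0 mM. MDA-MB-231 is an established human line from a triple-negative breast cancer. The 2 mM library came from cells grown in 2D in high-glucose DMEM with 2 mM metformin for 30 days. Metformin is a biguanide that inhibits respiratory complex I. The 0 mM library came from cells grown for the same time in that medium without the drug. Both populations were then grown for 10 days as mammospheres on low-attachment plates and taken apart with trypsin and EDTA. The labels give 1 library per dose, and they state neither how many cultures a library pooled nor whether the sphere medium held metformin.

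Since each dose had 1 library, differences have no replicate check and are given as sizes, with neither test nor p-value. Counts were summed over the cells of a group and scaled to the same total for every group (CPM). Ratios carry a 95% interval that covers counting error only and leaves out the spread between cells and between cultures. A gene is called higher or lower where its ratio passes 1.5-fold, among genes with at least 50 CPM in either group and 50 UMIs over both. A gene under 50 CPM in 1 group entered through the other group alone, so its direction was fixed. Another scaling, TMM, shifts all log2 ratios by -0.17 at 2 mM and by -0.22 between doses in ID-high cells, so positive list medians there smaller than these sizes turn sign with it.

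ID proteins carry a helix-loop-helix but no DNA-binding region. They pair with E proteins and other basic helix-loop-helix (bHLH) factors and keep them off DNA, which holds back differentiation genes. ID1 and ID3 are classical direct targets of BMP receptors acting through SMAD1 and SMAD5, and in breast cancer they are known for roles in tumour initiation and lung colonisation.

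The promoter windows of the genes that chose the cells are shown for the SMAD motifs they hold. They are the 250 bases upstream of the transcription start, from RefSeq on GRCh38.p14, at chr20:31605039-31605288 on the plus strand for ID1 and at chr1:23559502-23559751 on the minus strand for ID3, and capitals mark a match to a motif.
ID1: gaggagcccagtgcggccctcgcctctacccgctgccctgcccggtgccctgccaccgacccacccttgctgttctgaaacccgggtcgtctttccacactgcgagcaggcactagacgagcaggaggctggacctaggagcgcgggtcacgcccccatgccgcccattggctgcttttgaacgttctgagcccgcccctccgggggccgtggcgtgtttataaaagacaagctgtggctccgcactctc
ID3: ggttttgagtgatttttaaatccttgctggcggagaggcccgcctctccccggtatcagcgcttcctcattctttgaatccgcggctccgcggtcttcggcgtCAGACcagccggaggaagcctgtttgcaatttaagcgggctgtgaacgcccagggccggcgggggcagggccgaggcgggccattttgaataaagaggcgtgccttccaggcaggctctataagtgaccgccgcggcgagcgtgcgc
Motifs were searched on both strands. CAGAC, which holds the SMAD box, occurred 1 time in the ID3 window and 0 times in the ID1 window, and 38% of 35116 windows of the same length held it. The shorter box alone was not searched, so 0 matches of CAGAC do not show that the ID1 window lacks it. GGCGCC, a GC-rich SMAD1 and SMAD5 motif, occurred 0 times in either, and 16.4% of all windows held it. A match is a description of letters and not a site, and a window without one says nothing about elements further upstream.

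ID-high cells were 2.5% of the cells at 2 mM (exact binomial 95% interval 1.53 to 3.83) and 20.7% at 0 mM (18.1 to 23.4). The rule used ID1 and ID3, so these shares and the ID1 and ID3 levels describe the choice and test nothing. The ID-high cells held 26.6% of the ID1 and ID3 UMIs of their library at 2 mM and 65.8% at 0 mM. A cell's ID1 and ID3 UMIs ranged between 3 and 20 with a median of 5 at 2 mM, and between 3 and 46 with a median of 6 at 0 mM. As a share of the cell's UMIs, the median was 0.124% at 2 mM and 0.145% at 0 mM, and the highest cell had 0.484% and 0.806%. Both transcripts were seen in 10 of 20 cells at 2 mM and 134 of 195 at 0 mM. ID1 without ID3 was seen in 10 cells at 2 mM and 51 at 0 mM, and ID3 without ID1 in 0 and 10. The rule's minimum sets the lower end of these shares. A larger proportion of the ID-high cells at 2 mM than at 0 mM had no ID3 UMI.

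**Figure D1:**
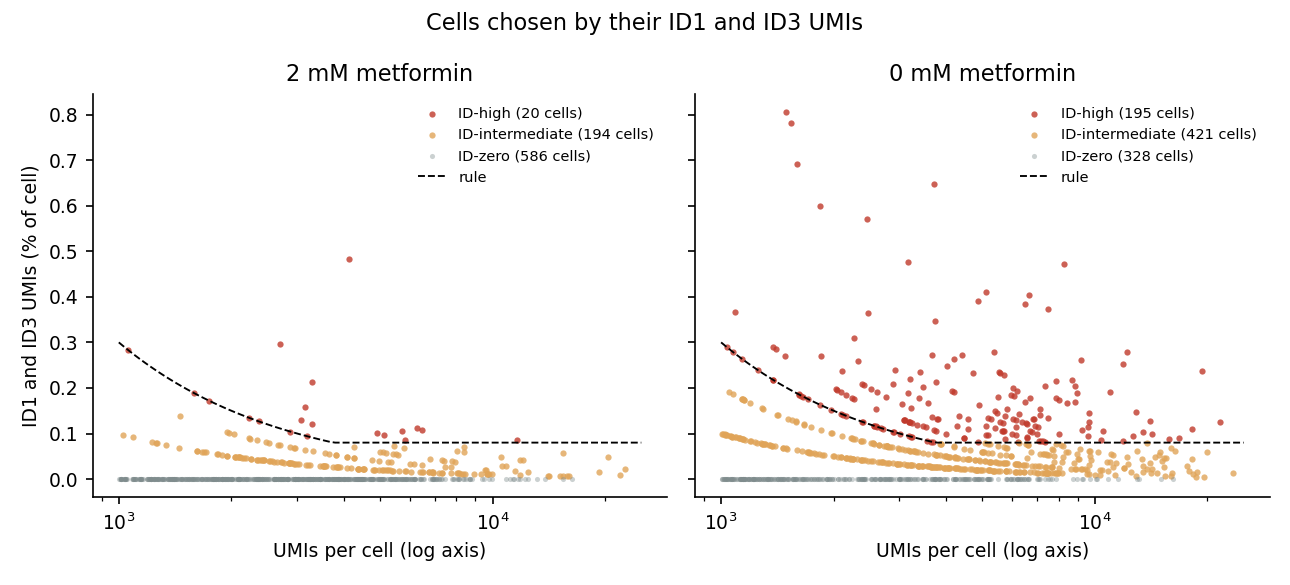
Percent of each cell's UMIs that were ID1 or ID3 (y) against its UMIs (x, log axis), for 800 cells at 2 mM and 944 at 0 mM; points are cells, coloured by group, and the dashed line is the rule. Above the line lie 20 cells at 2 mM and 195 at 0 mM, and in shallow cells the minimum of 3 UMIs sets the line.

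Many ID-high cells lay close to the cut. Exactly 3 ID1 and ID3 UMIs were found in 7 of the 20 cells at 2 mM and 33 of the 195 at 0 mM. Just inside, 4 cells at 2 mM had 0.0859% to 0.0975% and 30 cells at 0 mM had 0.0804% to 0.0998%. Just outside, 26 cells at 2 mM and 90 at 0 mM had 3 or more such UMIs but shares of at most 0.0732% and 0.0798%. At the other end, 2 cells at 2 mM and 62 at 0 mM held 10 or more ID1 and ID3 UMIs.

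Depth bears on these shares. The median cell had 3244.5 UMIs among ID-high and 2823.5 among ID-zero cells at 2 mM, and 4458 and 2377 at 0 mM, so some ID-zero cells were too shallow to show the transcripts. After thinning every cell to 1000 UMIs, 3 or more ID1 and ID3 UMIs remained in 6 of 800 cells at 2 mM (0.750%, 0.276 to 1.63) and in 54 of 944 at 0 mM (5.72%, 4.33 to 7.40). At least 1 remained in 9.38% and 35.6%. Within bins of cell depth, the ID-high share was 1.42% at 2 mM and 9.05% at 0 mM below 2000 UMIs. It was 2.95% and 24.1% up to 4000 UMIs, 3.21% and 25.1% up to 8000, and 1.54% and 25% above that. The share was lower at 2 mM in each of the 4 bins. The libraries shared 0 barcodes. Within a library many barcodes differed by 1 base from another, and joining those left 891 barcodes at 2 mM and 931 at 0 mM. No cell type without ID1 and ID3 was at hand to set the level that free RNA gives, so its part in cells with few ID UMIs was not tested.

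The cells carried the markers of the labelled line. All 6 markers of MDA-MB-231 on the list had UMIs, at a summed 5061 CPM in ID-high and 4343 CPM in ID-zero cells at 2 mM, and at 6298 CPM in ID-high and 6289 CPM in ID-zero cells at 0 mM. The intermediate filament gene VIM had 1476 CPM in ID-high and 1499 CPM in ID-zero cells at 2 mM, and 3048 CPM in ID-high and 3059 CPM in ID-zero cells at 0 mM. Genes that the line lacks or expresses weakly summed to 49.6 CPM in ID-high and 48.8 CPM in ID-zero cells at 2 mM and to 28.2 CPM in ID-high and 43.8 CPM in ID-zero cells at 0 mM, most of it EPCAM. The oestrogen receptor gene ESR1 and the E-cadherin gene CDH1 had 0 UMIs in the ID-high cells at 2 mM and 1 UMI each at 0 mM. ID1 and ID3 are also known from endothelium, so endothelial markers were read. Only 4 of 10 were measured, at a summed 99.2 CPM in ID-high and 101 CPM in ID-zero cells at 2 mM and 161 CPM in ID-high and 133 CPM in ID-zero cells at 0 mM. Of these, TIE1 had 0 UMIs in the ID-high and ID-zero cells of both libraries. In the ID-high cells at 2 mM the sum was 4 UMIs of EGFL7, 2 of ESAM and 2 of KDR, the main VEGF receptor. KDR was thus at 24.8 CPM in ID-high and 2.51 CPM in ID-zero cells at 2 mM, a ratio of 9.87 with a counting interval of 0.940 to 60.3, and it had 1 UMI in ID-high and 0 in ID-zero cells at 0 mM. At 0 mM EGFL7 and ESAM gave 165 of the 166 UMIs in ID-high cells. The part of such markers in the results was not tested. The leukocyte list, with 6 of 8 measured, summed to 3722 CPM in ID-high and 2992 CPM in ID-zero cells at 2 mM and to 2217 CPM in ID-high and 1923 CPM in ID-zero cells at 0 mM. Almost all of that was CD74, the class II invariant chain, seen in 19 of the 20 ID-high cells at 2 mM, and the pan-leukocyte gene PTPRC had 0 UMIs in the ID-high cells of both libraries. The 7 fibroblast genes had 1 UMI in ID-high cells at 2 mM and 6 at 0 mM, so 12.4 CPM in ID-high and 5.03 CPM in ID-zero cells at 2 mM, and 5.83 CPM in ID-high and 3.89 CPM in ID-zero cells at 0 mM.

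ID1 and ID3 tended to be found in the same cells. When cells were chosen by ID1 alone with the same limits, ID3, which then had no part in the choice, was at 282 CPM in 16 chosen cells at 2 mM and at 17.4 CPM in cells without ID1, a ratio of 16.2 (8.53 to 29.4). Of the 17 ID3 UMIs there, 9 came from 1 cell, and without it ID3 was at 142 CPM, a ratio of 8.16 (3.28 to 17.8). At 0 mM it was at 351 CPM in 126 chosen cells and at 122 CPM in cells without ID1, a ratio of 2.87 (2.35 to 3.51). Chosen by ID3 alone, 42 cells at 0 mM had 1067 CPM of ID1, against 299 CPM in cells without ID3 (ratio 3.57, 3.05 to 4.15), and at 2 mM only 2 cells could be chosen so. Pearson's r of the log levels of ID1 and ID3 was 0.143 over 800 cells at 2 mM and 0.247 over 944 cells at 0 mM. These r are weak, and each comes from the cells of 1 library. Those cells differed in depth, from 1001 to 22557 UMIs at 2 mM and from 1003 to 23485 at 0 mM. The part of depth in r was not tested.

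The other members of the family were scarce. ID2 had 0 UMIs in the 20 ID-high cells at 2 mM, where 3 counts would be 37.2 CPM, against 75 UMIs or 37.7 CPM in ID-zero cells, so no difference was detectable at this depth. At 0 mM ID2 had 31 UMIs in 26 ID-high cells, or 30.1 CPM, against 4 UMIs in 4 ID-zero cells, or 3.89 CPM, a ratio of 7.74 (2.74 to 30.2). ID4 had 0 UMIs in ID-high and ID-zero cells at 2 mM, and 2 and 0 UMIs at 0 mM. ID2 was therefore also found mostly with ID1 and ID3 at 0 mM.

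Of the 35 BMP-SMAD genes listed, 32 were in the table and 8 had enough UMIs to compare in each library. At 2 mM 1 was higher and 3 lower in ID-high than in ID-zero cells, where 19.2% of 4291 genes were higher and 18.2% lower, and the median log2 ratio was 0.07 beside 0.03 for all genes. The 3 lower were SMAD3, SMURF2 and BMPR2. All were under 50 CPM in ID-high cells and entered through ID-zero cells alone, so their direction was fixed. The counting intervals of their ratios included 1, with upper ends of 1.16, 1.22 and 1.37. At 0 mM 0 were higher and 1 lower, where 5.09% of 4031 genes were higher and 3.4% lower, with a median of -0.12 beside 0.01. The ligand gene BMP4 stood at 521 CPM in ID-high and 257 CPM in ID-zero cells at 2 mM (2.02, 1.44 to 2.77), and was seen in 14 of 20 and 273 of 586 cells. At 0 mM it had 283 CPM in ID-high and 306 CPM in ID-zero cells (0.923). Without the cell that had most BMP4, the ratio at 2 mM was 1.75. BMP4 was thus higher in the ID-high cells at 2 mM and within 1.5-fold at 0 mM, and the difference between libraries was not tested. The receptor gene BMPR2 had 49.6 CPM in ID-high and 94.5 CPM in ID-zero cells at 2 mM and 46.6 CPM in ID-high and 59.3 CPM in ID-zero cells at 0 mM. The signal transducer SMAD5 had 86.8 CPM in ID-high and 77.4 CPM in ID-zero cells at 2 mM and 76.8 CPM in ID-high and 83.6 CPM in ID-zero cells at 0 mM. FST, whose product follistatin binds activins and BMPs, had 86.8 CPM in ID-high and 85.5 CPM in ID-zero cells at 2 mM and 53.4 CPM in ID-high and 84.6 CPM in ID-zero cells at 0 mM (0.632, 0.442 to 0.895). The feedback inhibitors SMAD6 and SMAD7, which are BMP targets like ID1, were too rare to compare. At 0 mM SMAD6 had 3 UMIs in ID-high and 1 in ID-zero cells, SMAD7 had 6 and 4, and the bHLH gene ATOH8, another BMP target, had 15 and 8. Summed over the list, the level was 1179 CPM in ID-high and 1096 CPM in ID-zero cells at 2 mM, and 1025 CPM in ID-high and 1093 CPM in ID-zero cells at 0 mM.

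Among bHLH factors and partners of ID proteins, 3 of 11 compared genes were higher and 1 lower at 2 mM, and 2 of 10 were higher and 0 lower at 0 mM. Over all genes 19.2% were higher and 18.2% lower at 2 mM, and 5.09% and 3.4% at 0 mM. BHLHE40, a bHLH repressor that does not depend on E proteins, had 136 CPM in ID-high and 54.3 CPM in ID-zero cells at 2 mM (2.51) and 89.4 CPM in ID-high and 47.7 CPM in ID-zero cells at 0 mM (1.88, 1.31 to 2.71). Without the cell with most of it the ratio at 2 mM was 1.23. At 0 mM BHLHE40 was under the 50 CPM minimum in ID-zero cells and was compared through its ID-high level alone. It could thus only come out higher, and it is 1 of the 2 genes called higher there.

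Interferon-stimulated genes stood higher in the ID-high cells of both libraries. Of 27 compared at 2 mM, 14 were higher and 3 lower in ID-high than in ID-zero cells, with a median log2 ratio of 0.60. Of 26 compared at 0 mM, 11 were higher and 1 lower, with a median of 0.54, and these counts are to be read against the 19.2% of all genes that were higher at 2 mM and the 5.09% at 0 mM. ISG15, a ubiquitin-like modifier, had 3399 CPM in ID-high and 1385 CPM in ID-zero cells at 2 mM, a ratio of 2.45 (2.16 to 2.78). At 0 mM ISG15 had 3627 CPM in ID-high, 1782 CPM in ID-intermediate and 1768 CPM in ID-zero cells, a ratio of 2.05 (1.94 to 2.17). HERC5, the ligase that attaches ISG15, had 1116 CPM in ID-high and 251 CPM in ID-zero cells at 2 mM (4.44, 3.51 to 5.57) and 719 CPM in ID-high and 319 CPM in ID-zero cells at 0 mM (2.25, 1.98 to 2.57). The RNA sensor gene DDX58, which encodes RIG-I, had 521 CPM in ID-high and 287 CPM in ID-zero cells at 2 mM (1.82, 1.30 to 2.49) and 653 CPM in ID-high and 290 CPM in ID-zero cells at 0 mM (2.25, 1.96 to 2.59). At 0 mM it was seen in 59.0% of ID-high and 33.8% of ID-zero cells.

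DDX60, a helicase that aids RIG-I, had 310 CPM in ID-high and 90.5 CPM in ID-zero cells at 2 mM (3.43, 2.16 to 5.22) and 290.5 CPM in ID-high and 121 CPM in ID-zero cells at 0 mM (2.41, 1.95 to 2.99). IFIT1, which binds foreign RNA caps, had 1352 CPM in ID-high and 410 CPM in ID-zero cells at 2 mM (3.30, 2.68 to 4.03) and 857 CPM in ID-high and 574 CPM in ID-zero cells at 0 mM, where its ratio of 1.49 was just under the limit. OASL had 819 CPM in ID-high and 269.5 CPM in ID-zero cells at 2 mM (3.04) and 674 CPM in ID-high and 391 CPM in ID-zero cells at 0 mM (1.72). RARRES3, a phospholipase-like growth suppressor, had 1178 CPM in ID-high and 358 CPM in ID-zero cells at 2 mM (3.29) and 732 CPM in ID-high and 362 CPM in ID-zero cells at 0 mM (2.02). WARS, an interferon-inducible tRNA synthetase, had 409 CPM in ID-high and 114 CPM in ID-zero cells at 2 mM (3.60) and 324 CPM in ID-high and 153 CPM in ID-zero cells at 0 mM (2.12). OAS2, which makes the activator of RNase L, had 149 CPM in ID-high and 24.1 CPM in ID-zero cells at 2 mM (6.17) and 74.8 CPM in ID-high and 39.9 CPM in ID-zero cells at 0 mM (1.88). In both libraries OAS2 was under the 50 CPM minimum in ID-zero cells. It was compared through its ID-high level alone, so it could only come out higher, and the counts of higher members include it. Not all members passed the 1.5-fold limit. IFIT2 had 744 CPM in ID-high and 565 CPM in ID-zero cells at 2 mM (1.32) and 1014 CPM in ID-high and 842 CPM in ID-zero cells at 0 mM (1.2).

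Few cells carried this at 2 mM. Of the interferon-stimulated UMIs of the 20 ID-high cells, 76.5% came from 5 cells, and the highest cells held 324, 215, 157 and 139 of them. Without the cell with most of them the list's median at 2 mM was 0.29, with 12 of 27 higher and 3 lower. HERC5 was seen in 10 cells, and 46.7% of its UMIs came from 1 of them. Without the cell with most of the gene, the ratio at 2 mM was 2.55 for HERC5, 2.03 for ISG15, 2.41 for IFIT1, 1.8 for RARRES3, 2.49 for WARS and 3.88 for OAS2. It was 1.43 for DDX58 and 1.07 for SAMD9, an antiviral gene with 2.19 when all cells were kept. In the whole list, the share of a cell's UMIs had a median of 0.453% in ID-high, 0.405% in ID-intermediate and 0.334% in ID-zero cells at 2 mM, and of 0.921%, 0.404% and 0.486% at 0 mM. ID-intermediate cells at 0 mM thus did not lie between the other groups. After thinning to 1000 UMIs, 20 or more UMIs of the list were found in 7 of 20 ID-high cells (35.0%, 15.4 to 59.2) and 64 of 586 ID-zero cells (10.9%, 8.51 to 13.7) at 2 mM. At 0 mM they were found in 49 of 195 ID-high cells (25.1%, 19.2 to 31.8) and 39 of 328 ID-zero cells (11.9%, 8.59 to 15.9). The lower mark of 3 UMIs was met by 70.0% and 66.6% at 2 mM and by 87.7% and 74.4% at 0 mM, and unthinned by 90% and 93% and by 99.5% and 91.5%.

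The members of the list called lower were IFNL1, IRF1 and RSAD2 at 2 mM and IFNL1 alone at 0 mM. IFNL1, which encodes interferon lambda 1, had 12.4 CPM in ID-high and 145 CPM in ID-zero cells at 2 mM (0.0854, 0.00215 to 0.479, from 1 UMI in ID-high cells) and 69.0 CPM in ID-high and 177 CPM in ID-zero cells at 0 mM (0.390). It was seen in 1 and 20 cells at 2 mM and in 8 and 17 cells at 0 mM, so a few cells set these levels. At 2 mM IFNL1 passed the 50 CPM minimum through ID-zero cells alone, so it could only come out lower.

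**Figure D2:**
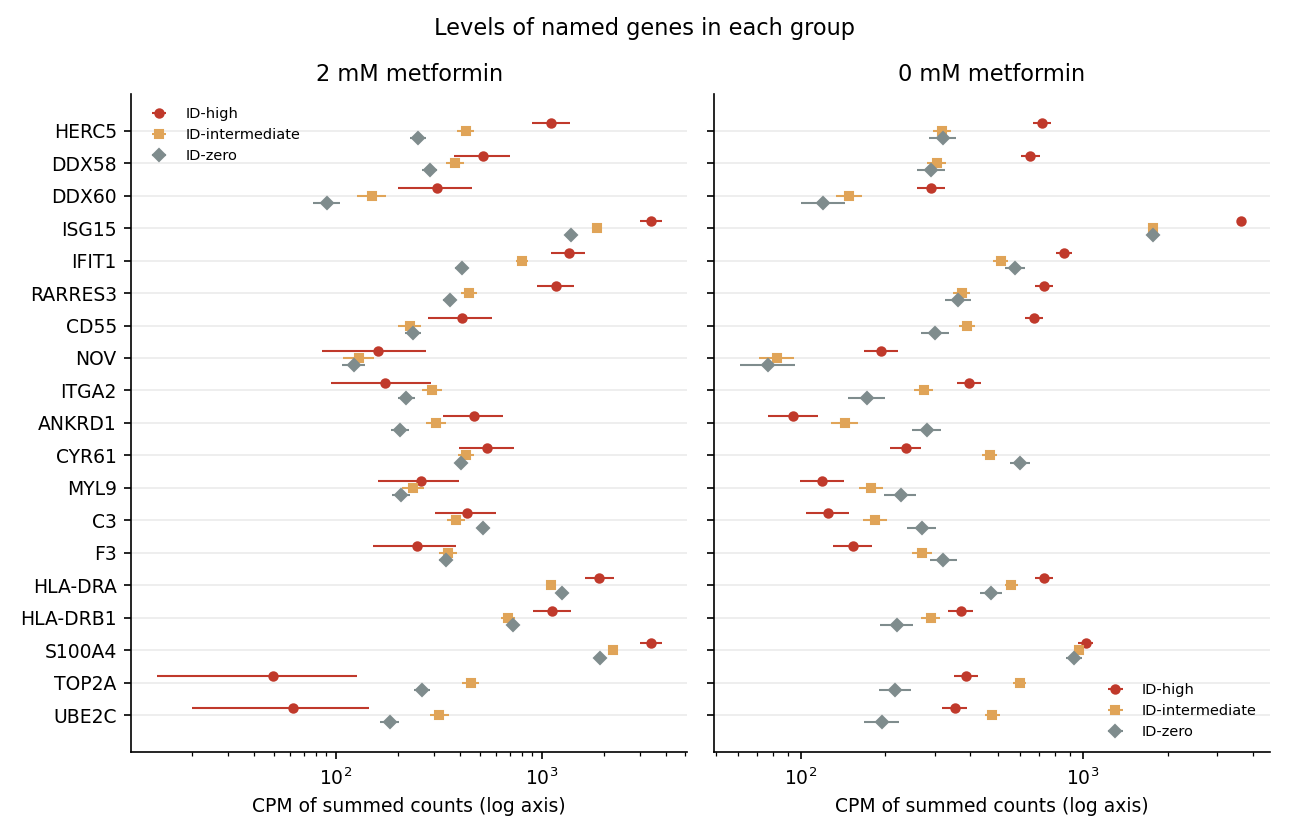
CPM of summed counts (x, log axis) of 19 genes in ID-high, ID-intermediate and ID-zero cells at 2 mM and 0 mM, with exact Poisson 95% intervals that cover counting error only. ISG15 lies at 3399 CPM in ID-high cells at 2 mM and 3627 CPM at 0 mM, and lower in the other groups, while ANKRD1 lies above ID-zero cells at 2 mM and below them at 0 mM.

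Outside the interferon list, CD55, ITGA2, NOV and LAPTM5 were also higher in the ID-high cells at 0 mM, named for their ratios and not as a group. With cells chosen by ID3 alone the log2 ratio was 0.41 for CD55, under 1.5-fold, and -0.35 for ITGA2, -0.15 for NOV and -0.0100 for LAPTM5. CD55, which protects cells from complement, had 672 CPM in ID-high, 388 CPM in ID-intermediate and 301 CPM in ID-zero cells, a ratio of 2.24 (1.95 to 2.57), and was seen in 72.3% of ID-high and 47.0% of ID-zero cells. ITGA2, the collagen-binding integrin subunit, had 396 CPM in ID-high, 274 CPM in ID-intermediate and 172 CPM in ID-zero cells (2.30, 1.93 to 2.76), and NOV, a secreted CCN protein, had 193 CPM in ID-high, 82.4 CPM in ID-intermediate and 76.8 CPM in ID-zero cells (2.52, 1.93 to 3.31). LAPTM5, a lysosomal membrane gene best known in leukocytes, had 123 CPM in ID-high, 78.5 CPM in ID-intermediate and 59.3 CPM in ID-zero cells (2.08). At 2 mM these genes were not all higher. CD55 had 409 CPM in ID-high and 238 CPM in ID-zero cells (1.72, and 1.17 without 1 cell), NOV 161 CPM in ID-high and 122 CPM in ID-zero cells (1.32), and ITGA2 174 CPM in ID-high and 221 CPM in ID-zero cells (0.787). LAPTM5 had 12.4 CPM in the ID-high cells at 2 mM, too few UMIs to compare.

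Targets of YAP and the actin-SRF programme were among the lowest genes in ID-high cells at 0 mM. Of 28 compared genes on that list, 6 were lower and 0 higher, against 3.4% of all genes lower, although the list's median was only -0.12. As a whole the list was not lower in the median cell. Its per-cell medians were 1.995% of UMIs in ID-high, 2.062% in ID-intermediate and 1.984% in ID-zero cells. Its sums were 2.05%, 2.14% and 2.14%. ANKRD1, a classical YAP target, had 94.2 CPM in ID-high, 143 CPM in ID-intermediate and 280 CPM in ID-zero cells (0.336, 0.264 to 0.425). CYR61, a secreted YAP target, had 236 CPM in ID-high, 468 CPM in ID-intermediate and 599 CPM in ID-zero cells (0.394, 0.338 to 0.458), and MYL9, a myosin light chain, had 120 CPM in ID-high, 178 CPM in ID-intermediate and 227 CPM in ID-zero cells (0.527). NEXN, an actin-binding gene, had 14.6 CPM in ID-high, 31.4 CPM in ID-intermediate and 57.4 CPM in ID-zero cells (0.254). NEXN passed the 50 CPM minimum through ID-zero cells alone, so it could only come out lower. For each of these 4 genes the ID-intermediate cells lay between the other groups. At 2 mM the list gave 2 higher and 3 lower of 28 and a median of 0.17, where 19.2% of all genes were higher and 18.2% lower. There ANKRD1 had 471 CPM in ID-high and 206 CPM in ID-zero cells (2.29, 1.60 to 3.19), with 38 UMIs in 6 cells of which 14 were in 1 cell, and CYR61 had 546 CPM in ID-high and 406 CPM in ID-zero cells (1.35).

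Some inflammatory genes were lower at 0 mM as well. Of the inflammatory and NF-kB genes, 3 of 16 were lower and 1 higher at 2 mM with a median of -0.02, and 6 of 15 were lower and 2 higher at 0 mM with a median of -0.32. Of all genes 18.2% were lower and 19.2% higher at 2 mM, so the count of lower members was near that share, and 3.4% were lower and 5.09% higher at 0 mM. The complement gene C3 had 434 CPM in ID-high and 519 CPM in ID-zero cells at 2 mM (0.837) and 125 CPM in ID-high and 269 CPM in ID-zero cells at 0 mM (0.465). The neutrophil chemokine gene IL8 had 248 CPM in ID-high and 219 CPM in ID-zero cells at 2 mM (1.13) and 76.8 CPM in ID-high and 187 CPM in ID-zero cells at 0 mM (0.411). IL6 had 74.4 CPM in ID-high and 128 CPM in ID-zero cells at 2 mM (0.581) and 70.0 CPM in ID-high and 156 CPM in ID-zero cells at 0 mM (0.450). The tissue factor gene F3, which starts clotting, had 248 CPM in ID-high and 342 CPM in ID-zero cells at 2 mM (0.726) and 154 CPM in ID-high and 321 CPM in ID-zero cells at 0 mM (0.478). Also lower at 0 mM were the RANKL decoy gene TNFRSF11B at 50.5 CPM in ID-high and 139 CPM in ID-zero cells (0.363), the ubiquitin ligase gene FBXO32 at 70.0 CPM in ID-high and 182 CPM in ID-zero cells (0.385) and the matrix gene EFEMP1 at 42.7 CPM in ID-high and 110 CPM in ID-zero cells (0.389). PMEPA1, a TGF-beta target that damps SMAD signals, had 21.4 CPM in ID-high and 72.0 CPM in ID-zero cells (0.297). EFEMP1 and PMEPA1 were under 50 CPM in ID-high cells and entered through ID-zero cells alone, so they could only come out lower. The list of TGF-beta targets was split, with 4 of 12 higher, 3 lower and a median of 0.31 at 2 mM, and 2 of 12 higher, 3 lower and a median of -0.01 at 0 mM, beside the same shares over all genes. PMEPA1 is among its lower members at 0 mM.

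Some class II antigen presentation genes were higher in ID-high cells, and whether the libraries differed in this was not tested. At 2 mM 5 of 8 were higher with a median of 0.62, and at 0 mM 2 of 7 with a median of 0.31, where 19.2% of all genes were higher at 2 mM and 5.09% at 0 mM. HLA-DRA had 1910 CPM in ID-high and 1254 CPM in ID-zero cells at 2 mM (1.52, 1.29 to 1.79) and 728 CPM in ID-high and 475 CPM in ID-zero cells at 0 mM (1.53, 1.37 to 1.72). HLA-DRB1 had 1129 CPM in ID-high and 728 CPM in ID-zero cells at 2 mM (1.55) and 369 CPM in ID-high and 220 CPM in ID-zero cells at 0 mM (1.68), and its reads may be divided uncertainly among the related HLA-DRB genes. The calls at 2 mM lay close to the limit. Without the cell with most of the gene the ratio was 1.5 for HLA-DRA, 1.41 for HLA-DRB1 and 1.42 for HLA-DPB1 (1.61 with all cells), and with TMM scaling none of these 3 genes passed 1.5-fold.

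At 2 mM the highest and lowest genes outside the interferon list rested on few UMIs. RGCC, a cell cycle regulator, had 174 CPM in ID-high and 37.2 CPM in ID-zero cells (4.67, 2.43 to 8.33) in 8 cells. All 14 UMIs of the chemokine gene CXCL3 came from 1 cell, as did 12 of the 14 of the matrix gene MGP, whose ratio of 6.28 was 0.973 without it. In the other direction, the anti-apoptotic gene BIRC3 had 62.0 CPM in ID-high and 453 CPM in ID-zero cells (0.137) at 2 mM and 447 CPM in ID-high and 439 CPM in ID-zero cells at 0 mM (1.02). The chromatin gene ATAD2 had 12.4 CPM in ID-high and 119 CPM in ID-zero cells at 2 mM and 104 CPM in ID-high and 144 CPM in ID-zero cells at 0 mM. FAM213A had 0 UMIs in ID-high cells at 2 mM and 155 CPM in ID-zero cells, and 192 CPM in ID-high and 173 CPM in ID-zero cells at 0 mM. At 2 mM RGCC in ID-zero cells, and ATAD2 and FAM213A in ID-high cells, were under 50 CPM, so their direction was fixed.

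Lists of metabolism and stemness lay closer to 0 than the interferon list at 0 mM. At 2 mM and 0 mM the median log2 ratio was 0.40 and 0.03 for glycolysis, -0.06 and -0.15 for mitochondrially encoded genes, 0.04 and -0.11 for complex I, 0.07 and -0.01 for the integrated stress response, and -0.13 and -0.23 for breast stem cell markers. Of 13 immediate early genes, 1 was higher and 4 lower at 2 mM, and 3 were higher and 1 lower at 0 mM, among them KLF4 at 98.1 CPM in ID-high and 55.4 CPM in ID-zero cells at 0 mM (1.77). Of 12 hypoxia targets 2 were higher at 2 mM, and 2 of 11 at 0 mM. Beside the 19.2% of all genes higher and 18.2% lower at 2 mM, and the 5.09% and 3.4% at 0 mM, these counts of a few genes are given as a description only.

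**Figure D3:**
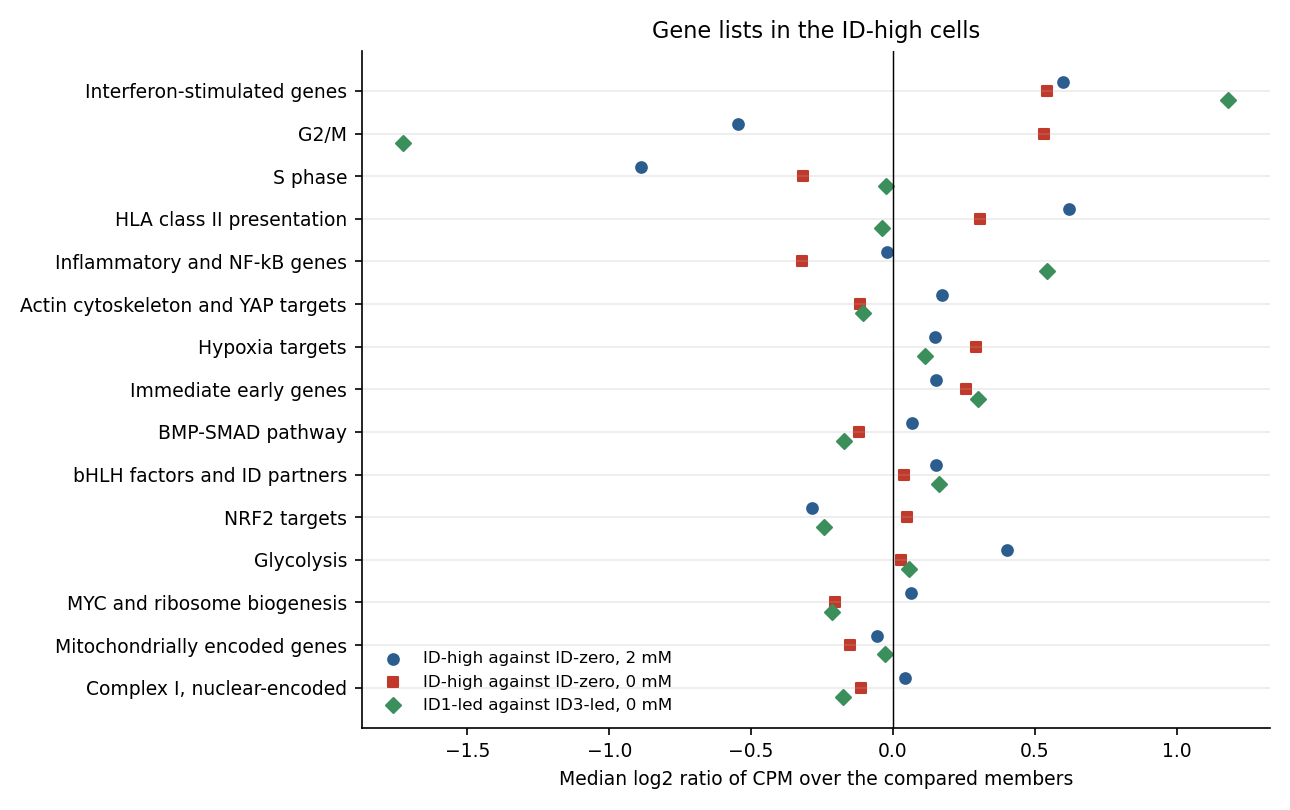
Median log2 ratio of CPM (x) over the compared members of 15 gene lists, for ID-high against ID-zero cells at 2 mM and at 0 mM and for ID1-led against ID3-led cells at 0 mM. The interferon-stimulated list lies at 0.60, 0.54 and 1.18, and the G2/M list at -0.55, 0.53 and -1.73.

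G2/M genes, which act in late cell cycle and mitosis, differed between the libraries. At 2 mM 14 of 29 were lower and 1 higher in ID-high than in ID-zero cells, with a median of -0.55, where 18.2% of all genes were lower. At 0 mM 17 of 37 were higher and 0 lower, with a median of 0.53, where 5.09% of all genes were higher. TOP2A, the mitotic topoisomerase, had 49.6 CPM in ID-high and 262 CPM in ID-zero cells at 2 mM (0.189, 0.0513 to 0.487) and 386 CPM in ID-high and 217 CPM in ID-zero cells at 0 mM (1.78, 1.51 to 2.10). The mitotic kinase gene AURKA had 24.8 CPM in ID-high and 119 CPM in ID-zero cells at 2 mM (0.208, 0.0251 to 0.760, from 2 UMIs in ID-high cells) and 186 CPM in ID-high and 89.5 CPM in ID-zero cells at 0 mM (2.07), and TTK had 0 UMIs in ID-high cells at 2 mM and 77.7 CPM in ID-high and 29.2 CPM in ID-zero cells at 0 mM (2.66, 1.73 to 4.20). A few cells carried these sums: 5 of the 20 cells at 2 mM held 72.4% of the G2/M UMIs. In either library a gene under 50 CPM in 1 group was compared through the other group alone, so its direction was fixed. TTK at 0 mM, and TOP2A and AURKA at 2 mM, were genes of this kind. The part of such genes in these counts and medians was not tested. The ID-high cells did not stand at the top at 0 mM, where ID-intermediate cells had 599 CPM of TOP2A and 260 CPM of AURKA. The list took 0.337% of the UMIs in ID-high, 0.672% in ID-intermediate and 0.477% in ID-zero cells at 2 mM, and 0.663%, 0.947% and 0.448% at 0 mM. The per-cell medians were 0.169%, 0.181% and 0.173% at 2 mM and 0.219%, 0.240% and 0.247% at 0 mM. After thinning, 3 or more G2/M UMIs were found in 40.0% of ID-high and 37.4% of ID-zero cells at 2 mM and in 51.8% and 54.0% at 0 mM. The per-cell medians and these shares thus lay closer together than the sums, and without the cell with most G2/M UMIs the list's median at 2 mM was -1.19. With all cells that were not ID-high as the comparison, the median at 0 mM was -0.25.

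S phase genes were lower by median in both libraries, at -0.89 with 7 of 14 lower and 1 higher at 2 mM and at -0.32 with 4 of 16 lower and 0 higher at 0 mM. Over all genes 18.2% were lower at 2 mM and 3.4% at 0 mM. The per-cell medians of the list lay close together, at 0.0661% of UMIs in ID-high and 0.0717% in ID-zero cells at 2 mM and 0.0881% in ID-high and 0.0971% in ID-zero cells at 0 mM, and 5 of the 20 ID-high cells held 68.7% of its UMIs at 2 mM.

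The ID-high cells at 0 mM were not alike. Cells in which ID1 UMIs outnumbered ID3 UMIs are called ID1-led and those with the reverse ID3-led, a division made after the values were seen. It gave 17 ID1-led, 2 ID3-led and 1 tied cell at 2 mM, too few to compare, and 145, 44 and 6 at 0 mM. The 145 cells held 1082 ID1 and 243 ID3 UMIs and the 44 cells 90 and 231. Their median depth was 4573 and 4398.5 UMIs, and mitochondrially encoded transcripts had a median of 4.47% and 5.42%.

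The interferon-stimulated genes were higher in ID1-led than in ID3-led cells. Of 27 compared, 21 were higher and 0 lower in ID1-led than in ID3-led cells, with a median log2 ratio of 1.18 beside -0.04 for all 3786 genes compared, of which 11.7% were higher and 10% lower. The list took 1.71% of the UMIs in ID1-led, 0.628% in ID3-led and 0.900% in ID-zero cells, and the per-cell medians were 1.2%, 0.392% and 0.486%. After thinning, 10 or more UMIs of the list were found in 87 ID1-led cells (60%, 51.5 to 68.0), 11 ID3-led cells (25%, 13.2 to 40.3) and 25.6% of ID-zero cells. By this mark the ID3-led cells lay near the ID-zero cells. ISG15 had 4417 CPM in ID1-led and 1393 CPM in ID3-led cells (3.17, 2.84 to 3.56), DDX58 833 CPM in ID1-led and 151 CPM in ID3-led cells (5.53, 3.97 to 7.93) and HERC5 906 CPM in ID1-led and 187 CPM in ID3-led cells (4.84, 3.59 to 6.67). IFIT3, a partner of IFIT1, had 1624 CPM in ID1-led and 362 CPM in ID3-led cells, the guanylate-binding gene GBP4 267 CPM in ID1-led and 40.7 CPM in ID3-led cells, and the exonuclease gene ISG20 440 CPM in ID1-led and 89.6 CPM in ID3-led cells. RSAD2, which encodes viperin, had 73.9 CPM in ID1-led cells and 0 UMIs in ID3-led cells. Higher outside that list were the pluripotency-associated factor KLF4 at 123 CPM in ID1-led and 8.14 CPM in ID3-led cells and NOV at 235 CPM in ID1-led and 73.3 CPM in ID3-led cells. These genes were chosen after their values were seen. GBP4, RSAD2 and KLF4 were under 50 CPM in ID3-led cells and entered through ID1-led cells alone, so they could only come out higher. The part of such genes in the list's count was not tested.

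The G2/M list ran the other way. Of 37 compared, 34 were lower and 0 higher in ID1-led than in ID3-led cells, with a median of -1.73, where 10% of all genes were lower and 11.7% higher. UBE2C, which helps to end mitosis, had 164 CPM in ID1-led and 957 CPM in ID3-led cells (0.171), the cyclin gene CCNB1 100 CPM in ID1-led and 566 CPM in ID3-led cells, and the mitotic motor gene CENPE 47.5 CPM in ID1-led and 334 CPM in ID3-led cells. TOP2A had 224 CPM in ID1-led and 884 CPM in ID3-led cells (0.254, 0.207 to 0.312). CENPE was under 50 CPM in ID1-led cells and entered through ID3-led cells alone, so it could only come out lower. The part of such genes in the count was not tested. The list took 0.433% of the UMIs in ID1-led, 1.32% in ID3-led and 0.448% in ID-zero cells. Again a minority of cells carried it: the per-cell medians were 0.218%, 0.251% and 0.247%, while the upper quartiles were 0.359% in ID1-led and 1.69% in ID3-led cells. After thinning, 10 or more G2/M UMIs were found in 16 ID1-led cells (11.0%, 6.44 to 17.3), 15 ID3-led cells (34.1%, 20.5 to 49.9) and 13.1% of ID-zero cells, and 5 cells held 65.8% of the G2/M UMIs of the ID3-led cells. Among cells with few cycle transcripts, 71 ID1-led and 14 ID3-led, the median was -0.28 for G2/M and 1.47 for interferon-stimulated genes. The acute phase genes SAA1 and SAA2, close copies of each other, were lower too, SAA1 at 750 CPM in ID1-led and 2227 CPM in ID3-led cells and SAA2 at 161 CPM in ID1-led and 615 CPM in ID3-led cells. CTGF, a YAP target, had 71.3 CPM in ID1-led and 407 CPM in ID3-led cells, but 57% of its UMIs in ID3-led cells came from 1 cell.

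**Figure D4:**
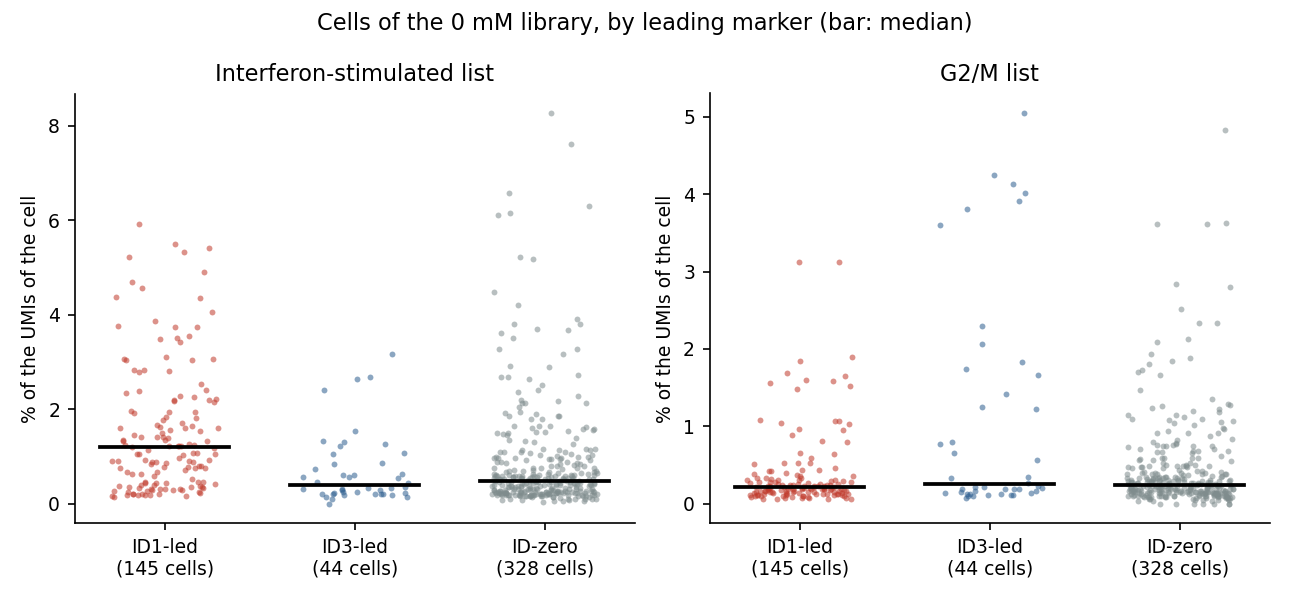
Percent of a cell's UMIs from the interferon-stimulated list (left) and the G2/M list (right) in 145 ID1-led, 44 ID3-led and 328 ID-zero cells at 0 mM; each point is a cell and the bar the median. The interferon medians are 1.2%, 0.392% and 0.486%, and a minority of ID3-led cells lies above 1% for G2/M while the G2/M medians lie close together.

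Read the other way round, all cells of at least 1000 UMIs were classed by the lists and not by ID1 or ID3. These are the same cells as above, so this is a second description and no separate support. At 2 mM, cells with 0 to 2, 3 to 4, 5 to 9, 10 to 19 and 20 or more interferon-stimulated UMIs per 1000 had 99.6, 68.7, 121, 157 and 197 CPM of ID1. ID3 in the same classes was at 31.9, 27.7, 21.1, 17.9 and 2.43 CPM. At 0 mM ID1 was at 220, 254, 355, 710 and 764 CPM and ID3 at 188, 186, 166, 226 and 144 CPM. ID1 at 0 mM was therefore over 3 times as high in the top class as in the lowest, and ID3 had no such order. The ID-high share was 2.26%, 2.38%, 0.581%, 1.89% and 7% at 2 mM and 10.5%, 17.6%, 16.5%, 34.2% and 33.1% at 0 mM. In the top interferon class, ID1 was at 197 CPM in 100 cells at 2 mM (156 to 245) and at 764 CPM in 148 cells at 0 mM (700 to 833). By G2/M class, ID1 at 2 mM was at 113, 140, 92.1, 95.8 and 131 CPM and ID3 at 19.7, 54.1, 13.2, 24.7 and 17.5 CPM, with neither in order of the classes. ID1 at 0 mM was at 451, 447, 380, 404 and 265 CPM and ID3 at 148, 186, 218, 193 and 247 CPM, so ID1 was lowest and ID3 highest in the top class. The cells of that class were deeper, with a median of 6232 UMIs.

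**Figure D5:**
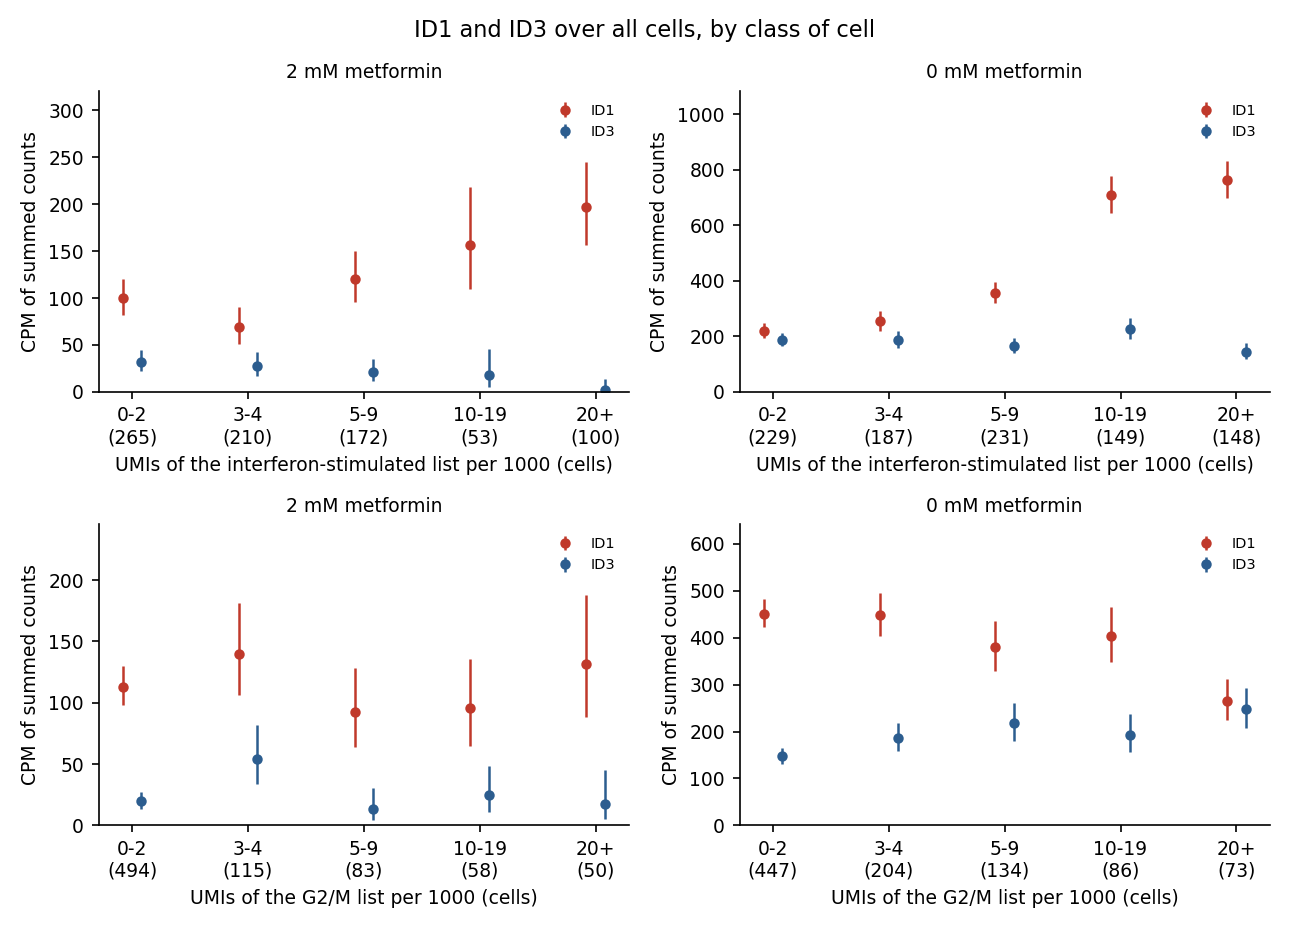
CPM of ID1 and ID3 (y) over all cells of at least 1000 UMIs, by how many UMIs of the interferon-stimulated list (top) or the G2/M list (bottom) a cell had per 1000 (x, cell numbers in brackets), with exact Poisson 95% intervals that cover counting error only. At 0 mM ID1 is 220 CPM in the lowest and 764 CPM in the highest interferon class, and the y axes differ between panels.

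Between the doses, the ID-high cells were compared as 20 cells at 2 mM and 195 at 0 mM. Of 3911 genes, 15.8% were higher and 21.5% lower at 2 mM. In ID-zero cells, set beside them, 7.13% of 4098 genes were higher and 3.78% lower, with far more UMIs behind each value. All 7 class II genes compared were higher in the ID-high cells and all 8 in the ID-zero cells, with medians of 1.35 and 1.23. In ID-high cells HLA-DPB1 reached 657 CPM at 2 mM and 163 CPM at 0 mM (4.03), against 408 CPM at 2 mM and 156 CPM at 0 mM in ID-zero cells (2.62). The calcium-binding motility gene S100A4 was at 3399 CPM at 2 mM and 1025 CPM at 0 mM in ID-high cells (3.32) and 1912 CPM at 2 mM and 932 CPM at 0 mM in ID-zero cells (2.05). SAA1 was at 4553 CPM at 2 mM and 1092 CPM at 0 mM in ID-high cells (4.17) and 3534 CPM at 2 mM and 1596 CPM at 0 mM in ID-zero cells (2.21), and at 2 mM 115 of its 367 UMIs came from 1 cell. ANKRD1 was at 471 CPM at 2 mM and 94.2 CPM at 0 mM in ID-high cells (5, 3.34 to 7.35) and 206 CPM at 2 mM and 280 CPM at 0 mM in ID-zero cells (0.736). Whether the ID-high cells differed from the ID-zero cells in their change with dose was not tested.

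Lower at 2 mM in ID-high cells were the G2/M genes, with 25 of 37 lower, 0 higher and a median of -0.84, against 0 of 30 lower or higher and 0.16 in ID-zero cells. Of the S phase genes 8 of 14 were lower and the median was -1.31, against 2 of 16 lower and a median of -0.40 in ID-zero cells. There 15 of the 16 had a ratio below 1. Over all genes 21.5% were lower in ID-high cells and 3.78% in ID-zero cells. The per-cell medians of the G2/M list were 0.169% of UMIs at 2 mM and 0.219% at 0 mM in ID-high cells. In ID-zero cells they were 0.173% and 0.247%. PLAU, the urokinase gene, was at 37.2 CPM at 2 mM and 289 CPM at 0 mM in ID-high cells (0.129, 0.0264 to 0.381, from 3 UMIs at 2 mM) and 144 CPM at 2 mM and 185 CPM at 0 mM in ID-zero cells (0.781). Genes under 50 CPM in ID-high cells at 2 mM, among them PLAU, TTK, AURKA and TOP2A, entered through 0 mM alone. They could only come out lower, and their part in the G2/M and S phase counts was not tested. The interferon-stimulated list did not stand apart between doses, with 6 of 26 higher, 5 lower and a median of 0.02 in ID-high cells (-0.20 under TMM scaling). This comparison uses the same ID-high cells as the comparisons with ID-zero cells, so the values are not independent of them.

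The 2 libraries share no cells, so the same gene higher in ID-high cells of both is not counted on the same cells. Of 3708 genes compared in both, 57 were higher in both, which is 10.8% of the 529 higher at 2 mM and 42.5% of the 134 higher at 0 mM. Over these genes 14.3% were higher at 2 mM and 3.61% at 0 mM. Lower in both were 40, or 5.72% of 699 and 35.7% of 112. Of the genes higher at 0 mM, 19 were lower at 2 mM. Of those lower at 0 mM, 15 were higher at 2 mM. Over all genes compared in both, 18.9% were lower at 2 mM and 3.02% at 0 mM.

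The genes most like the ID1 and ID3 sum over single cells were ranked by the lower of their Pearson's r in the libraries, among 3507 genes, over 800 and 944 cells. CAPG, an actin-capping gene, was first with 0.186 at 2 mM and 0.171 at 0 mM, followed by OASL with 0.170 and 0.177 and IGFBP6 with 0.143 and 0.173. DDX60 had 0.130 and 0.185, HERC5 0.187 and 0.129, and DDX58 0.128 and 0.170. Also among the 10 were SAMD9, HIAT1, LDHA and RAB13. These r are weak, and the cells of a library share its preparation but differ in depth, whose part in r was not tested.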

How the data were processed

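The authors deposited whole counts of UMIs per gene and barcode, in a table of 19826 genes and 2000 barcodes. Per the submitters' processing notes the tools were STAR 2.5.0a and bcl2fastq and the build was hg19. Not given in the sources used here are barcode selection, UMI collapse, annotation and strand, so genes with close copies or overlapping neighbours carry uncertain counts. 0 columns went unmapped.

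Barcodes with at least 1000 UMIs were kept, and no doublet caller was run. Counts were summed per group into CPM. Ratios carry exact conditional Clopper-Pearson intervals, sums exact Poisson intervals and shares exact binomial intervals, at 95%. They treat UMIs as separate draws and cover counting error only. Zero sums were set to a floor of 3 counts. Lists use members passing 50 CPM in either group and 50 UMIs over both, so a member that passed through its high group alone had to differ. ID1 and ID3 were left out of ratios. The gene lists, members and tests were chosen with earlier results of these data known. Named were the 12 highest and 12 lowest genes at 0 mM, the 8 at each end at 2 mM and between doses, ranked by the interval bound nearest 1, up to 3 per end of each list, all ID and BMP-SMAD genes, cell type markers and the 10 most alike genes. The text gives those that bear on its comparisons, and some genes are not reported here. The division by leading marker, the classes by list and the values without 1 cell were added after seeing the data. Scripts were checked on simulated counts. Alternatives were other cut-offs, depth weighting, thinning, equal weight per cell, merged barcodes and TMM scaling. Tools were Python 3.11.15, numpy 2.4.6, pandas 2.3.3, scipy 1.17.1, matplotlib 3.10.9, R 4.3.3 and edgeR 4.0.16, the last for TMM factors. Promoters came from RefSeq GRCh38.p14, and no coordinate of the counted genes was taken from that build.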

Additional observations from a re-analysis of the deposited data

Results flagged for a closer look

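The G2/M list moved in opposite directions in the ID-high cells of the libraries, and the difference was not tested. Its median log2 ratio against ID-zero cells was -0.55 at 2 mM and 0.53 at 0 mM. The same held for AURKA (-2.26 at 2 mM and 1.05 at 0 mM), TOP2A (-2.40 and 0.83) and UBE2C (-1.57 and 0.85). Outside that list it held for PLAU (-1.96 and 0.64) and for ANKRD1 (1.19 and -1.57), again with no test of the difference. At 2 mM each value rests on 20 ID-high cells. There AURKA, TOP2A and PLAU were under 50 CPM in ID-high cells, so their direction was fixed. At 0 mM the direction depended on the comparison. Against all cells that were not ID-high the log2 ratio was -0.25 for the list's median, -0.16 for AURKA, -0.32 for TOP2A and -0.15 for UBE2C, and with cells chosen by ID1 alone it was -0.64, -0.54, -0.65 and -0.97. The per-cell medians of the list lay close together, at 0.169% of UMIs in ID-high and 0.173% in ID-zero cells at 2 mM, and 0.219% in ID-high and 0.247% in ID-zero cells at 0 mM.

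Barcodes under 1000 UMIs, which entered no comparison, also held ID1 and ID3 UMIs. There were 200 of them at 2 mM, with 140.4 CPM (86.9 to 215), and 56 at 0 mM, with 489.5 CPM (317 to 723). In the barcodes of at least 1000 UMIs the levels were 137 CPM at 2 mM and 594 CPM at 0 mM.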

How the results depend on the processing

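No paired analysis was possible because each dose has 1 library and no test was run. The alternatives below change 1 choice at a time, except that the stricter limit of 5 UMIs and 0.15% raises both limits of the rule together. Of the values of single genes, 633 of 681 at 2 mM and 610 of 740 at 0 mM moved by less than their counting interval, as did 516 of 541 between doses in ID-high cells and 609 of 660 in ID-zero cells. TMM factors moved the log2 ratios by -0.17 at 2 mM and -0.22 between doses in ID-high cells, and by -0.00 and -0.03 in the other comparisons.

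The share of ID-high cells was 0.5% at 2 mM and 7.42% at 0 mM with at least 5 UMIs and 0.15%, 0.25% and 4.45% by ID3 alone, and 0.75% and 5.72% with cells thinned to 1000 UMIs. At 0 mM it was 24.7% among cells of at least 2000 UMIs, 13.4% by ID1 alone and 16.4% with cells thinned to 2000 UMIs. The stricter limit and ID3 alone left under 10 cells at 2 mM, so no ratios were formed there.

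Of ID-high against ID-zero cells at 0 mM, 205 genes were higher and 137 lower. These counts were 357 and 303 with 5 UMIs and 0.15%, 104 and 85 against all cells that were not ID-high, 340 and 333 by ID1 alone, 416 and 410 by ID3 alone, 347 and 300 with no CPM minimum, and 77 and 45 at 100 CPM. In cells with few cycle transcripts 236 were lower. At 2 mM 823 were higher and 783 lower, with 411 and 304 at 100 CPM and 1399 lower with no CPM minimum. Between doses in ID-high cells 619 were higher and 842 lower, with 321 higher under TMM, 351 lower at 100 CPM, and 329 and 399 in cells with few cycle transcripts. In ID-zero cells 292 were higher and 155 lower, with 840 and 387 with no CPM minimum, 109 and 63 at 100 CPM, and 441 and 245 in cells with few cycle transcripts.

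The G2/M median at 0 mM, 0.53, was 0.20 with 5 UMIs and 0.15%, -0.25 against all cells that were not ID-high, -0.64 by ID1 alone, 0.99 by ID3 alone, 0.36 with equal weight per cell and 0.0514 in cells with few cycle transcripts. At 2 mM, -0.55, it was -0.23 by ID1 alone, -0.16 in cells with few cycle transcripts and -1.19 without the cell with most G2/M UMIs, and for ID1-led against ID3-led cells it was -0.28 in cells with few cycle transcripts. The interferon-stimulated median at 0 mM was 0.86 by ID1 alone and -0.36 by ID3 alone, and at 2 mM it was 0.29 without the cell with most UMIs of the list. The difference in the share of cells with 3 or more such UMIs at 0 mM was 2.04 points at 2000 UMIs per cell, against 13.3. The cause of these shifts was not tested.

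Direction turned for these genes at 0 mM. Against all cells that were not ID-high the log2 ratio was -0.16 for AURKA, -0.16 for GTSE1, -0.17 for KIF2C, -0.0891 for PTTG1, -0.32 for TOP2A and -0.15 for UBE2C. By ID1 alone it was -0.54 for AURKA, -1.11 for KIF2C, -0.37 for PTTG1, -0.65 for TOP2A and -0.97 for UBE2C. With 5 UMIs and 0.15% it was 0.0803 for FST and -0.0153 for UBE2C, and in cells with few cycle transcripts -1.11 for PTTG1. By ID3 alone it was -0.10 for CAPG, -0.71 for DDX58, -0.52 for DDX60, 0.72 for FST, -1.21 for HERC5, -0.35 for ITGA2, -1.70 for KLF4, -0.0100 for LAPTM5, -0.15 for NOV, -0.00467 for OASL, -0.56 for PLAU, -0.0765 for SAMD9 and -0.0556 for WARS. At 2 mM MGP was at -0.0398 without the cell with most of it. Between doses in ID-high cells HERC5 was at -0.44 in cells with few cycle transcripts. The endothelial median between doses in ID-zero cells, -1.53, was 0.24 among cells of at least 2000 UMIs and 0.17 in cells with few cycle transcripts. With 20 ID-high cells at 2 mM, 0 UMIs of a gene allow a level of up to 37.2 CPM, and 1 to 3 UMIs give ratios with wide intervals.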
